A study of Mus musculus with 18 samples.

Results

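The minichromosome maintenance (Mcm) genes encode the replicative DNA helicase and 2 related proteins. The 8 genes described are Mcm2, Mcm3, Mcm4, Mcm5, Mcm6, Mcm7, Mcm8 and Mcm10. They were chosen by name, and every non-control probe whose accession mapped to one of them was taken. That gave 9 probes, 1 for each gene and a second one for Mcm8, out of 28223 probes mapped to a gene. All 8 genes were among the 17932 genes, of 19096 named on the array, that passed the filter on dim probes, and their leading probes were well above background on all 18 arrays.

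Mcm2 to Mcm7 form a ring-shaped complex that is loaded around DNA at replication origins before S phase, a step called licensing. The origin recognition complex with Cdc6 and Cdt1 loads the ring, and Cdc45 and the GINS proteins later join it to make the working helicase that unwinds DNA at the fork. Mcm10 is not a ring subunit and takes part in switching the helicase on, while Mcm8 works with Mcm9 in homologous recombination. Many of these genes are transcribed as cells enter the cycle under E2F factors. Thyroid follicular cells divide little in the grown gland and are stimulated to grow by thyrotropin.

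Expression was measured on single-colour Agilent arrays in thyroids of C57BL/6 mice aged 1 month. The normal-diet groups held 5 wild-type (WT) and 5 Glis3KO2 (KO2) samples, and the groups fed a low-iodine diet for 6 days held 4 of each genotype. Glis3KO2 is the labels' name for animals with a targeted Glis3 gene, which encodes a zinc finger factor, and the deleted part, the cells affected and the sex of the mice are not given in the sources used here. The labels number the replicates without saying whether each is 1 animal, so the p-values measure the spread between these samples. A level is the log2 processed signal minus the 75th percentile of its array, and levels are compared between groups for the same probe only.

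The share of spots well above background was 60.1% to 90.6% per array, and the number of arrays limits the precision. Each of the 5 slides held both genotypes in equal numbers, but the normal-diet and low-iodine arrays were on different slides and scanners, so an effect of diet and one of the array set cannot be told apart. The thyroid follicular markers Tg and Pax8 were well above background in every group. The single Glis3 probe did not separate the genotypes past the threshold (adjusted p = 0.732 on the normal and 0.0619 on the low-iodine diet in limma), and it may lie outside the deleted part. WT replicate 5 and KO2 replicate 2 on the normal diet had the highest thymocyte marker levels of their groups. The main results that rest on them are given with and without them.

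RefSeq promoter windows of GRCm38.p6, from 250 bases before to 50 after the annotated start, were matched for 7 of the 8 genes, Mcm7 with more than 1 window. They are shown because 7 of the 8 genes were lower in KO2 on low iodine, and 3 windows stand for the range. On that diet Mcm5 had the largest genotype difference of the 8 and Mcm6 the smallest. Mcm10 had a large difference with no E2F core match inside its window. Capitals mark E2F core matches (TTCCCGC or TTCGCGC or TTGCCGC or TTGGCGC on either strand). Mcm5 lies at chr8:75109259-75109558 on the plus strand, Mcm6 at chr1:128359656-128359955 on the minus strand and Mcm10 at chr2:5012742-5013041 on the minus strand, each written 5′ to 3′ along its gene.
Mcm5: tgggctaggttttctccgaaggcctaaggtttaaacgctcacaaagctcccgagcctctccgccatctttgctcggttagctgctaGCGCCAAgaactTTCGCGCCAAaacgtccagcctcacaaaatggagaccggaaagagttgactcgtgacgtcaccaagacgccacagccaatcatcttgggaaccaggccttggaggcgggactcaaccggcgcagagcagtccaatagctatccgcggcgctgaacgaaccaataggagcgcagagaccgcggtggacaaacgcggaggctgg
Mcm6: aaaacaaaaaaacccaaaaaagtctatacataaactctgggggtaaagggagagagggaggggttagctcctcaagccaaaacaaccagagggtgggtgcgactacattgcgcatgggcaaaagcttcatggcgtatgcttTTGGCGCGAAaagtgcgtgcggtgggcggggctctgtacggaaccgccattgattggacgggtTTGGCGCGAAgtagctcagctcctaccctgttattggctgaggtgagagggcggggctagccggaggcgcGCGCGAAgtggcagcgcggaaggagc
Mcm10: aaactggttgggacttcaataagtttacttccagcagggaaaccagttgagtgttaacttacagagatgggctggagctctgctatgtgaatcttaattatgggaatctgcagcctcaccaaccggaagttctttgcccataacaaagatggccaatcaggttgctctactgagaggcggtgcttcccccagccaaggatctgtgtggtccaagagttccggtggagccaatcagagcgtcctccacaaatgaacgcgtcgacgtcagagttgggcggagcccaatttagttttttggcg

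The Mcm5 window held 3 E2F core matches, of which a pair overlap on opposite strands, and the Mcm6 window held 5, including overlapping pairs. At least 1 E2F core was found for 5 of the 7 genes (71.4%: Mcm3, Mcm5, Mcm6, Mcm7 and Mcm8), against 10.9% of 27025 genes with a window and 65.8% of 38 other replication genes. CCAAT was found for 7 of 7, against 41.1% of all genes, and TTTGAA, the letters of the cell cycle homology region, for Mcm2 only, against 20.2%. A pair of E2F core matches of Mcm7 on opposite strands overlap each other and the same CCAAT match. These are matches of letters. Mcm6, with 5 E2F core matches, did not pass the threshold between genotypes on either diet. On the low-iodine diet Mcm3, Mcm5 and Mcm7 were called, with 3 matches each (for Mcm7 in the first window), as was Mcm8 with 1. Mcm2 and Mcm10, with none inside their windows, were called there too. A relation between matches and genotype differences was not tested. The Mcm10 window ends in ttggcg, the start of TTGGCGC, so a match that crosses its end could not be seen.

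**Figure D1:**
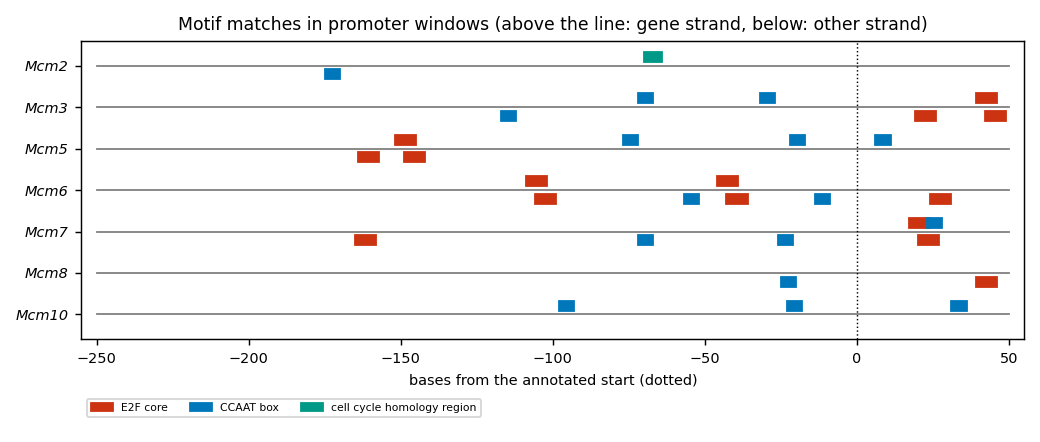
Each line is the promoter window of 1 gene (for Mcm7 the first), with the distance from the annotated start in bases on the x axis. Boxes above the line are motif matches on the strand of the gene and boxes below it matches on the other strand, and no red E2F core box lies on the lines of Mcm2 and Mcm10.

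On the low-iodine diet, 7 of the 8 Mcm genes were lower in KO2 than in WT thyroid. Mcm5 fell most, to a level 6.26-fold below WT, followed by Mcm10 (4.23-fold) and Mcm3 (3.25-fold), while Mcm7, Mcm4, Mcm8 and Mcm2 were 1.79-fold to 2.40-fold lower. Mcm6, a subunit of the same ring, did not pass the threshold. In the limma fit over 17932 genes, an adjusted p under 0.05 was reached by 15.0% of genes in either direction and by 7.18% as lower. The arrays of the genotypes did not overlap for 6 of the 8 genes, against 9.10% of all genes that were lower without overlap. The median difference of the 8 genes was -1.23 log2, beside -0.02 over all genes. In whole-tissue RNA, fewer cells of a type and less RNA per cell cannot be told apart.

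**Figure D2:**
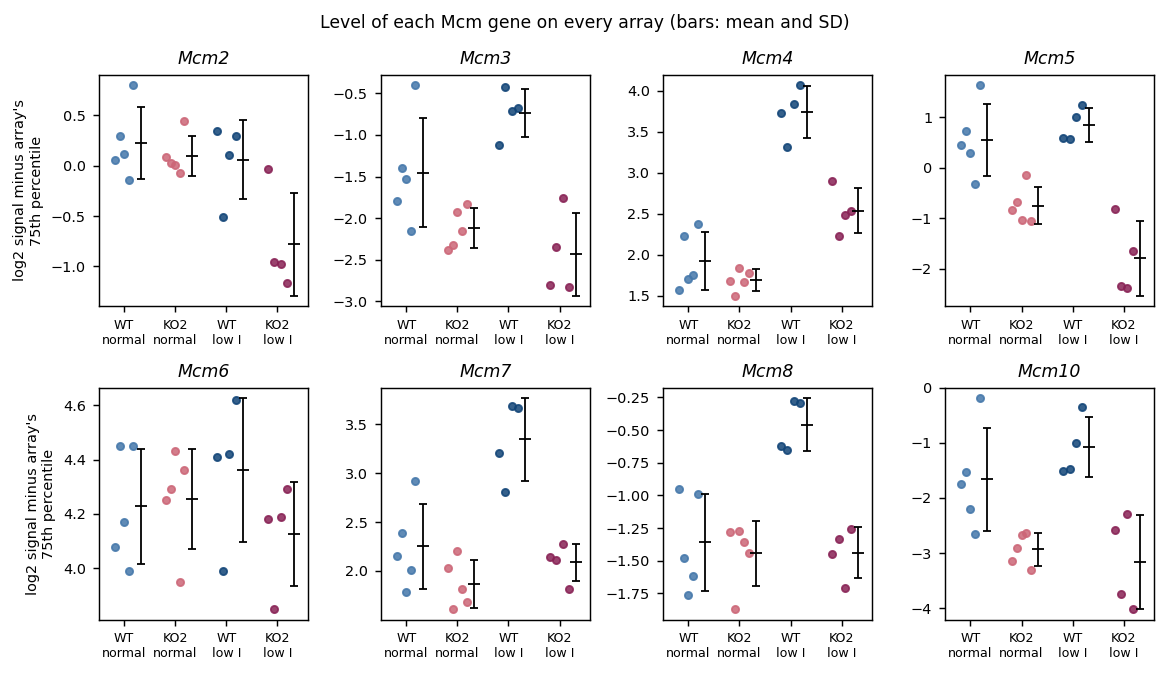
Each panel is 1 Mcm gene, each point 1 array, and the y axis is the log2 signal minus the 75th percentile of the array, on its own scale in each panel. Bars are the mean and SD of 5 (normal diet) or 4 (low-iodine diet) arrays, and the low-iodine KO2 points lie below all low-iodine WT points for Mcm3, Mcm4, Mcm5, Mcm7, Mcm8 and Mcm10.

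Mcm5 and Mcm2 sit on either side of the gate through which DNA enters the ring, as worked out with yeast and fly proteins. On the low-iodine diet the log2 level of Mcm5 (probe A_51_P190111) of the 4 WT arrays, in replicate order, was 0.58, 0.56, 1.00 and 1.24, and that of the 4 KO2 arrays was -0.81, -2.35, -2.39 and -1.65. Every KO2 array was below every WT array. The difference was -2.65 ± 0.38 (SE, adjusted p = 2.40e-04, limma), and it was -1.80 on slide 4 and -3.49 on slide 5. Mcm2 (A_51_P158210), whose protein also carries a histone-binding tail, was at 0.34, -0.51, 0.11 and 0.29 in WT and at -0.03, -0.96, -0.98 and -1.16 in KO2. Here WT replicate 2 was below KO2 replicate 1, so the groups overlapped. The difference was -0.84 ± 0.26 (SE, adjusted p = 0.0371, limma). Among 31 alternatives, many of which could not change the difference itself, the Mcm2 call was lost in 9. These were array-median scaling (adjusted p = 0.268, limma), a fit of the compared arrays only, slide as a fixed block, and the omission of WT replicate 1, 3 or 4 or KO2 replicate 2, 3 or 4. Among omissions of a single low-iodine array, the call was kept only without WT replicate 2 or KO2 replicate 1.

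Mcm3 (A_52_P364776) is the subunit through which, in yeast, the ring docks onto the origin recognition complex with Cdc6. On the low-iodine diet its level was -1.12, -0.42, -0.71 and -0.68 in WT and -2.80, -2.35, -1.76 and -2.83 in KO2. All KO2 arrays lay below the lowest WT array. The difference was -1.70 ± 0.31 (SE, adjusted p = 0.00171, limma).

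Mcm4, Mcm6 and Mcm7 are the subunits that together show helicase activity in the test tube. Mcm4 (A_51_P356762) was at 3.73, 3.32, 3.84 and 4.07 in WT and at 2.90, 2.23, 2.49 and 2.54 in KO2 on the low-iodine diet. Mcm7 (A_51_P165704) was at 3.21, 2.81, 3.69 and 3.67 in WT and at 2.14, 2.11, 2.28 and 1.82 in KO2. Both genes were separated without overlap, by -1.19 ± 0.20 for Mcm4 and -1.26 ± 0.24 for Mcm7 (SE, adjusted p = 9.17e-04 and 0.00221, limma). Mcm6 (A_51_P360492) was at 4.41, 3.99, 4.42 and 4.62 in WT and at 4.18, 3.85, 4.19 and 4.29 in KO2. Its groups overlapped, and the difference was -0.23 ± 0.17 (SE, 95% interval -0.59 to 0.12, adjusted p = 0.416, limma). The slides differed in sign for this gene, with 0.03 on slide 4 and -0.50 on slide 5.

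Mcm10 (A_51_P212682), the activator outside the ring, was at -1.51, -1.47, -1.0 and -0.34 in low-iodine WT and at -2.58, -3.75, -2.29 and -4.02 in low-iodine KO2. The groups did not overlap, and the difference was -2.08 ± 0.47 (SE, adjusted p = 0.00653, limma). Mcm8, the recombination helicase, was read by both of its probes. The brighter one (A_51_P208355) was at -0.62, -0.65, -0.28 and -0.29 in WT and at -1.45, -1.33, -1.71 and -1.26 in KO2, again without overlap. The difference was -0.98 ± 0.20 (SE, adjusted p = 0.00367, limma), and the call was lost with array-median scaling (-0.83, adjusted p = 0.0967). The dimmer probe (A_52_P193265) was at -4.15, -2.30, -3.52 and -2.58 in WT and at -3.80, -5.90, -3.71 and -4.69 in KO2, where 3 of 4 arrays were well above background. Its groups overlapped, and it gave the same direction, with -1.39 ± 0.44 (SE, adjusted p = 0.0472 over 26523 probes, limma). With every probe fitted singly, 8 of the 9 probes passed, against 13.4% of all probes.

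On the normal diet none of the 8 Mcm genes passed the threshold in limma, where 1.39% of all genes were called in either direction. Of the 8, 3 (Mcm3, Mcm5 and Mcm10) had an unadjusted p under 0.05. The share of all genes at an unadjusted cut is not given, here or below, so such counts have no background to be read against. The arrays of the genotypes overlapped for all 8 genes, while 1.63% of all genes were lower in KO2 without overlap. Their median difference was -0.31, beside 0.05 over all genes.

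Mcm5 and Mcm10 had the largest differences on this diet. Mcm5 was at 0.45, 0.72, 0.30, -0.32 and 1.64 on the 5 WT arrays, in replicate order, and at -0.84, -0.69, -1.03, -0.15 and -1.06 on the 5 KO2 arrays. The overlap came from replicate 4 of each genotype. The difference was -1.32 ± 0.34 (SE, 95% interval -2.04 to -0.59, adjusted p = 0.0700, limma), and over 31 alternatives the adjusted p ran from 0.0236 to 0.228. It passed in 6 of them: normexp background correction, no scaling, array weights, and the omission of WT replicate 4, KO2 replicate 4 or low-iodine KO2 replicate 1. Within slides it was -1.14, -1.11 and -1.61. Mcm10 was at -1.75, -1.52, -2.20, -2.66 and -0.19 in WT and at -3.15, -2.91, -2.67, -2.63 and -3.31 in KO2. WT replicate 4 reached into the KO2 range, and the difference was -1.27 ± 0.42 (SE, adjusted p = 0.166, limma).

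The other members lay closer together on the normal diet. Mcm3 was at -1.80, -1.40, -1.53, -2.15 and -0.40 in WT and at -2.39, -2.32, -1.93, -2.15 and -1.83 in KO2, a difference of -0.67 ± 0.28 (SE, adjusted p = 0.308, limma). Mcm7 was at 2.15, 2.39, 1.79, 2.01 and 2.92 in WT and at 2.03, 1.61, 2.20, 1.82 and 1.68 in KO2. In both genes WT replicate 5 was the highest array. Mcm4 was at 1.57, 2.23, 1.70, 1.75 and 2.37 in WT and at 1.68, 1.50, 1.84, 1.67 and 1.78 in KO2. Mcm2 was at 0.06, 0.29, 0.12, -0.14 and 0.80 in WT and at 0.09, 0.03, 0.01, -0.07 and 0.44 in KO2. The highest KO2 array of Mcm4 was below WT replicates 2 and 5, and the ranges overlapped. Mcm6 was at 4.08, 4.45, 4.17, 3.99 and 4.45 in WT and at 4.25, 4.29, 4.43, 3.95 and 4.36 in KO2. The brighter Mcm8 probe was at -0.95, -1.48, -1.76, -1.62 and -0.99 in WT and at -1.28, -1.87, -1.27, -1.36 and -1.44 in KO2. The genotypes covered nearly the same range for Mcm6. The differences were -0.39 for Mcm7, -0.23 for Mcm4, -0.13 for Mcm2, 0.03 for Mcm6 and -0.08 for Mcm8, with adjusted p from 0.473 to 0.970 in limma. Intervals reached -0.84 for Mcm7 and -0.62 for Mcm4, so a decrease of that size is not excluded.

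WT replicate 5 on the normal diet was the highest or equal highest of its group for Mcm2, Mcm3, Mcm4, Mcm5, Mcm6, Mcm7 and Mcm10. It also had the highest mean level of 9 thymocyte and T cell genes, 0.54 against -3.52 to -2.38 in the other WT arrays, and of 6 proliferation genes. Without it the median difference of the Mcm genes on the normal diet was -0.17, and without KO2 replicate 2 as well it was -0.11. In the latter fit Mcm5 differed by -1.06 (adjusted p = 0.228) and Mcm10 by -0.91 (adjusted p = 0.420, limma). Mcm3 then differed by -0.35, Mcm7 by -0.16 and Mcm4 by -0.07 on the normal diet, none past the threshold. The 7 calls on the low-iodine diet stayed 7, but the omitted arrays are not in that comparison. Its differences could not change, so that count does not bear on thymocyte content.

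Whether the genotype difference itself differed between diets was tested as the interaction. No Mcm gene passed in limma, against 1.22% of all genes, and 5 had an unadjusted p under 0.05 (Mcm3, Mcm4, Mcm5, Mcm7 and Mcm8). All 8 interaction terms were negative, that is, KO2 minus WT was more negative on the low-iodine diet. Their median was -0.88, beside -0.04 over all genes. Without WT replicate 5 and KO2 replicate 2 of the normal diet their median was -1.11. In that fit 0 terms passed, the smallest adjusted p being that of Mcm8 (0.0660, limma). The term of Mcm4 was -0.96 ± 0.27 (SE, adjusted p = 0.0967), that of Mcm8 -0.89 ± 0.27 (adjusted p = 0.120) and that of Mcm5 -1.33 ± 0.51 (adjusted p = 0.240). The calls on the low-iodine diet alone therefore do not show that the genotype difference depends on diet. With array weights 4 of the 8 terms passed, where 2.88% of all genes did, and with quantile normalization 2 passed, where 3.97% of all genes did.

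**Figure D3:**
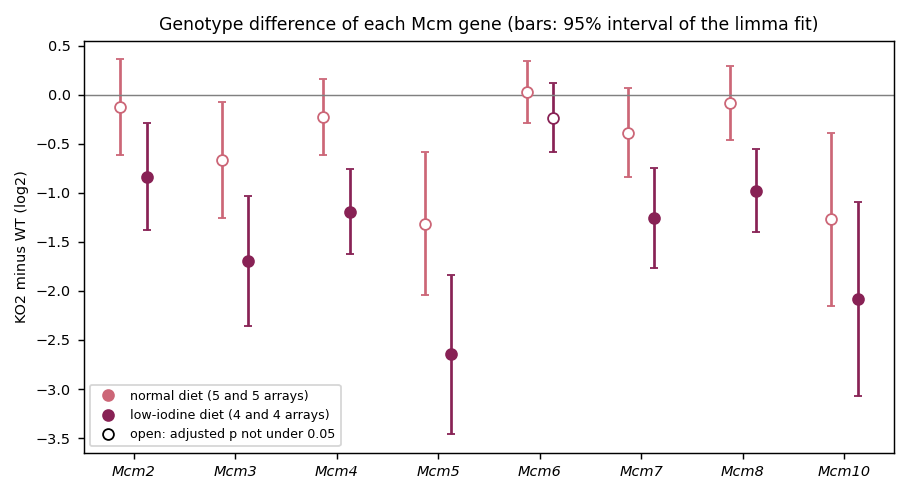
Points are the KO2 minus WT difference in log2 level of each Mcm gene on each diet, from 1 limma fit over 18 arrays, and bars are 95% intervals. Filled points have an adjusted p under 0.05: 7 genes on the low-iodine diet and none on the normal diet.

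Subunits of the ring were set against each other within an array as the difference of their log2 levels. Of 30 pair comparisons (15 pairs on each diet), none passed after Benjamini-Hochberg adjustment of exact two-sided permutation tests, and 8 on the normal and 7 on the low-iodine diet had a raw p under 0.05. The smallest adjusted p was 0.0612. On the low-iodine diet, where the smallest p the design allows is 0.0286, Mcm5 minus Mcm6 was lower in KO2 than in WT by -2.41 log2 (exact permutation p = 0.0286, adjusted p = 0.0612). On the normal diet the same pair was lower by -1.34 (exact permutation p = 0.0159, adjusted p = 0.0612). Mcm3, Mcm4 and Mcm7 were each lower against Mcm6 on the low-iodine diet at the same raw p.

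Diet was compared within each genotype, where it cannot be told apart from slide and scanner, and where 75.9% of genes were called in WT (39.4% as higher) and 74.4% in KO2 (36.9% as lower and 37.5% as higher). In low-iodine WT thyroid 4 Mcm genes were higher than on the normal diet: Mcm4 by 1.81 ± 0.19 (SE, adjusted p = 2.20e-07), Mcm7 by 1.09, Mcm8 by 0.90 and Mcm3 by 0.72. In KO2 thyroid Mcm4 was higher by 0.85, Mcm5 was lower by -1.05 and Mcm2 lower by -0.88 (adjusted p from 7.89e-04 to 0.0159, limma). Under array-median scaling, which moved the median of all genes to -0.91 in WT and -0.80 in KO2, Mcm3 and Mcm8 in WT turned negative and Mcm7 was no longer called. Mcm4 in WT kept its direction and its call under all 31 alternatives, between 0.83 and 2.29. Mcm2 in KO2 was lower and called under all 31 as well. Many of these, such as the omission of an array of the other genotype, could not change the difference itself. The Mcm3 call in WT was lost in 9 alternatives, among them the omission of normal-diet replicate 1, 3 or 4 or low-iodine replicate 2, 3 or 4. In KO2 the Mcm5 call was lost in 3, among them the omission of low-iodine replicate 2 or 3, and the Mcm4 call in 2.

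Genes acting around the Mcm ring were counted in fixed lists. On the low-iodine diet 18 of 47 were lower in KO2 and none higher, beside 7.18% of all genes called lower. Among 10 licensing genes 3 were lower. Cdc6, which loads the ring, differed by -2.99 ± 0.56 (SE, adjusted p = 0.00188, limma), and Cdt1, which escorts it, by -1.50 ± 0.32 (adjusted p = 0.00517). Cdc6 was well above background on 3 of the 4 KO2 arrays. Orc1 stood well above background on none of the KO2 arrays, and its KO2 mean was at least 2.52-fold lower. That bound allows for dim signal but not for the spread between arrays. The fitted difference passed the threshold (adjusted p = 0.0102, limma). Geminin (Gmnn), the inhibitor of Cdt1, differed by -0.32 (adjusted p = 0.179), and Mcmbp, which binds the ring, by -0.19 (adjusted p = 0.562).

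Of 13 genes of helicase activation 8 were lower, with a list median of -1.23. They included Topbp1 (-0.97), Wdhd1 (-1.23), Ticrr (-2.07) and Gins2 (-1.93), with adjusted p from 0.00115 to 0.00414 in limma. Gins1, Gins3, Cdc7 and Dbf4 passed as well, Cdc7 and Dbf4 being the kinase pair that phosphorylates the ring. Cdc45, the partner of GINS in the working helicase, differed by -1.30 ± 0.50 (SE) and did not pass (adjusted p = 0.0936). Of 21 polymerase, clamp and single-strand binding genes 7 were lower, led by Pole2 (-1.84), Pole (-2.07), Pola1 (-1.23) and the clamp Pcna (-0.78), and the list median was -0.44. Pole was well above background on 3 of the 4 KO2 arrays. Mcm9, the partner of Mcm8, differed by 0.33 (adjusted p = 0.354), Hrob, which recruits Mcm8 and Mcm9, by -0.02, and Mcm3ap by -0.24, none past the threshold. On the normal diet and in the interaction, 0 of these 47 genes were called by limma, against 1.39% and 1.22% of all genes. In each, 11 of the 47 had an unadjusted p under 0.05. Gmnn, Mcmbp, Gins1, Gins3, Cdc7, Dbf4, Cdc45, Mcm9, Hrob and Mcm3ap were named after their values were seen.

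**Figure D4:**
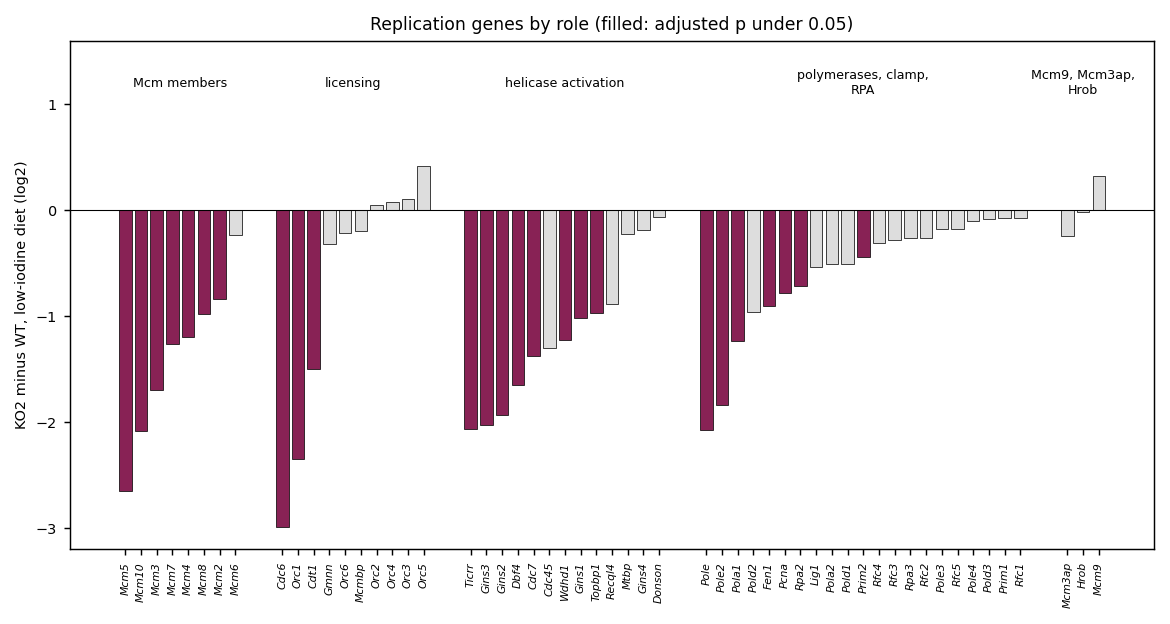
Bars are the KO2 minus WT difference in log2 level on the low-iodine diet, grouped by role in replication, and dark bars have an adjusted p under 0.05. The bar of Orc1 is the fitted value of a gene that stood well above background on none of the KO2 arrays. Dark bars are 7 of 8 Mcm genes, 3 of 10 licensing, 8 of 13 activation and 7 of 21 polymerase and clamp genes.

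Markers of dividing cells and of other cell types were read on the same arrays. All 6 proliferation genes (Mki67, Top2a, Ccnb1, Cdk1, Birc5 and Bub1b) were lower in KO2 on the low-iodine diet and 5 of 6 on the normal diet. Of all genes, 7.18% were called lower on low iodine and 1.39% in either direction on the normal diet. On low iodine the mean log2 level of the list was 1.15 ± 0.20 (SD, n = 4) for WT against -3.79 ± 0.12 (n = 4) for KO2, and on the normal diet it was -1.28 ± 1.24 (n = 5) against -4.03 ± 0.82 (n = 5). Cdk1 stood well above background on none of the low-iodine KO2 arrays, so the KO2 mean there holds its dim signal. On the normal diet WT replicate 5 had the highest mean of the list, 0.65, against -2.68 to -1.06 on the other WT arrays. The KO2 arrays there ran from -4.78 to -2.64. Proliferation calls without WT replicate 5 are not given here. The 5 proliferation calls on the normal diet stood beside none among the Mcm genes, and whether the lists differ was not tested.

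Of 9 thymocyte genes 0 were called on either diet in limma, with 3 at an unadjusted p under 0.05 on the normal diet and 0 on low iodine. The summed signal took in all 10 listed thymocyte genes with a probe. As log2 it ran from 0.52 to 5.75 in normal-diet WT and from -0.30 to 2.40 in normal-diet KO2. On low iodine it ran from -0.20 to 0.93 in WT and from 0.25 to 0.55 in KO2. Rag2 stood well above background on none of the arrays of either KO2 group, and Themis on none of either low-iodine group. On the normal diet 4 of 7 thymic epithelial genes were lower in KO2, and on low iodine 0 were called by limma and 1 had an unadjusted p under 0.05. The summed log2 signal of these genes on low iodine ran from 2.77 to 2.92 in WT and from 2.62 to 3.04 in KO2. On the normal diet it ran from 0.66 to 5.44 in WT and from -0.44 to 2.31 in KO2. Their mean level was highest in normal-diet WT replicate 2 (1.08), which stayed in the fits without WT replicate 5 and KO2 replicate 2. Of 7 fibroblast genes 4 were lower in KO2 on each diet, and 1 was higher on low iodine. On low iodine 4 of 6 endothelial genes were lower and 2 of 4 C cell genes were higher. Summed fibroblast signal on low iodine ran from 5.79 to 6.31 in WT and from 3.70 to 4.43 in KO2, and summed endothelial signal from 4.38 to 4.64 and from 3.44 to 3.70, also as log2. The mean log2 level of 4 brown fat genes was 3.68 in normal-diet WT and 3.84 in normal-diet KO2. On low iodine it was 0.21 in WT and 0.12 in KO2. That of 8 skeletal muscle genes ran from -4.54 to 5.93 within normal-diet KO2. The part of these cell types in the Mcm differences was not tested.

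**Figure D5:**
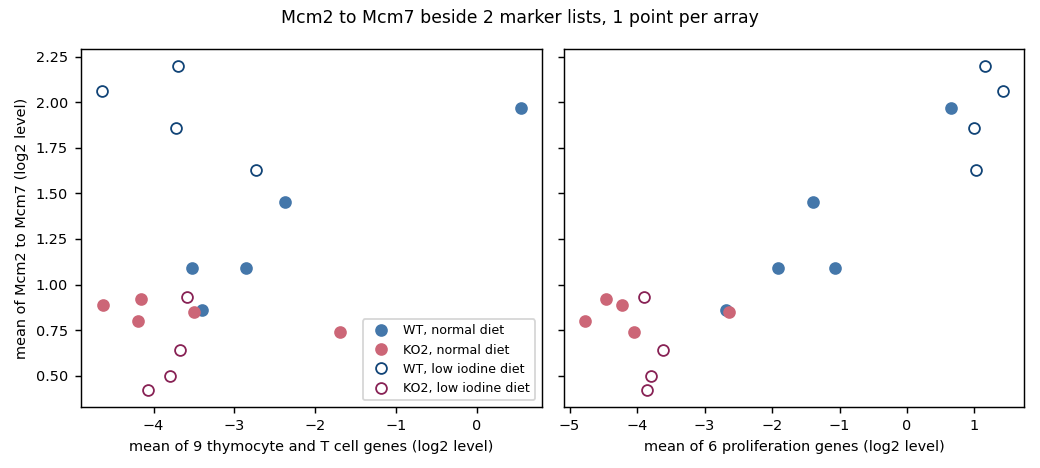
Each point is 1 array, with the mean log2 level of Mcm2 to Mcm7 on the y axis and the mean log2 level of 9 thymocyte genes (left) or 6 proliferation genes (right) on the x axis. Low-iodine WT arrays are high on the y axis with low thymocyte levels, and WT replicate 5 on the normal diet stands alone at 0.54 on the left.

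Across the 18 arrays, after the mean of each group was subtracted, the genes most like the mean of Mcm2 to Mcm7 outside the 8 members were Gins1 (Pearson r = 0.88), Dusp10 (0.84), Rfc4 (0.83), E2f2 (0.83) and Top2a (0.83). Among the members the r was 0.89 for Mcm4, 0.85 for Mcm10, 0.58 for Mcm3 and 0.45 for Mcm8, Mcm4 and Mcm3 being part of that mean. The points share their arrays and slides. Without WT replicate 5 of the normal diet the 5 values of the non-members lay between 0.60 and 0.75, that of Mcm3 was 0.17 and that of Mcm8 0.25. On low iodine Gins1 and Top2a were called lower in KO2, and Dusp10 (0.74, adjusted p = 0.216), Rfc4 (-0.31, adjusted p = 0.243) and E2f2 (-1.35, adjusted p = 0.0621, limma) did not pass.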

How the data were processed

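Per the labels' protocols, total RNA was amplified and labelled with Cy3. Per the submitters' processing notes, Agilent Feature Extraction version 12 was used. The deposited value used is the processed signal, a linear intensity with background already subtracted, and the deposited series table held the same intensities with no further scaling or centring (relative difference 0).

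Samples were grouped by their titles. Control spots and spots with an outlier flag were removed, as were 82 probes flagged on some array. Log2 of the signal minus the 75th percentile of each array was used, with the spots of a probe averaged. Accessions were matched to the RefSeq gene table of GRCm38.p6, which named 28223 of 41174 probes with 1 gene, 0 with several and 12951 with none. Probes were kept if well above background on 4 or more of 18 arrays, and the brightest stood for each gene. One limma model (version 3.58.1, R 4.3.3) of 4 group means was fitted to 18 arrays. P-values were adjusted over 17932 genes by the Benjamini-Hochberg method with a threshold of 0.05. It was tested on simulated data. The bound for Orc1 sets the WT mean against the KO2 mean of, per array, the larger of the measured value and the dimmest signal well above background.

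The members and lists were chosen with earlier results of these data known. Named genes were the members, up to 4 genes with the smallest p of each list with a call, and the 5 non-members most like Mcm2 to Mcm7. Other replication genes were named after their values were seen, as stated with them. Alternatives changed the background correction, scaling, filter, choice of probe, arrays fitted, weights and blocks. Of the listed genes, Rpa1 and Mcmdc2 were not among the genes tested.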

Additional observations from a re-analysis of the deposited data

Results flagged for a closer look

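Of 36 sets of arrays (each of the 9 probes in each group), 1 held an array far from the others. The brighter Mcm8 probe (A_51_P208355) was at -1.87 in KO2 replicate 2 on the normal diet, and the nearest of the other 4 arrays was at -1.44. The gap was 0.711 of the range of the group, just past the limit for 5 arrays, and chance alone gives about 1 such case in 20 sets. The same array had the highest thymocyte marker level of its group, and without it and WT replicate 5 the Mcm8 difference on the normal diet was 0.12 (adjusted p = 0.916, limma).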

How the results depend on the processing

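On the low-iodine diet Mcm3, Mcm4, Mcm5, Mcm7 and Mcm10 kept their direction and their call under all 31 alternatives, with Mcm5 between -3.09 and -2.12 and Mcm7 between -1.52 and -1.11. Many of these alternatives, such as the omission of a normal-diet array, left the low-iodine differences as they were. Those could change only the error or the adjustment, so the direction could not turn in them. Leaving out 1 array at a time gave 6 to 7 calls there, 0 to 1 on the normal diet (Mcm5, called without WT replicate 4, KO2 replicate 4 or low-iodine KO2 replicate 1), 0 for the interaction, and 6 to 8 of 9 probes. On the normal diet 1 gene passed with normexp on median signals (chosen after seeing the data, in place of mean signals), with no scaling and with array weights, where 1.47%, 1.66% and 5.53% of all genes were called. The interaction gave 2 calls with quantile normalization and 4 with array weights (3.97% and 2.88% of all genes), and array-median scaling left 5 probes called on low iodine. For arrays of the same replicate number, correlations of deviations between genotypes ran from -0.04 to 0.32 on the normal diet and from 0.03 to 0.13 on low iodine. No values for arrays of unlike number are given beside them, so they cannot show whether the numbers pair the samples. With the replicate block the calls were 0 on the normal and 7 on the low-iodine diet. The block moved the median diet difference in WT to 0.97.

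Diet differences depended on scaling. In WT the median of the 8 genes was -0.33 with array medians and 0.32 with no scaling (2 calls). It was 0.97 without WT replicate 5 and KO2 replicate 2 of the normal diet, and 0.44 to 0.97 with 1 array left out. In KO2 it was -0.99 with array medians (5 calls), -0.73 with quantile normalization (6 calls) and -0.62 with no scaling. Signs turned in WT with array medians for Mcm3 (-0.26), Mcm5 (-0.70), Mcm6 (-0.86), Mcm8 (-0.082) and Mcm10 (-0.40), with no scaling for Mcm5 (-0.048) and Mcm6 (-0.20), and with array weights for Mcm2 (0.045). In KO2 they turned for Mcm7 (-0.59 with array medians, -0.23 with no scaling), Mcm6 (0.42, quantile) and Mcm10 (0.13, normexp). Mcm8 in KO2 turned as well, to -0.80 with array medians, -0.44 with quantile, -0.44 with no scaling and -0.037 with array weights. It was -0.10 without WT replicate 5 and KO2 replicate 2 of the normal diet. On the normal diet signs turned for Mcm6 (-0.0024 with quantile, -0.13 with no scaling) and Mcm8 (0.085 with array weights). Without WT replicate 5 and KO2 replicate 2 they turned for Mcm8 (0.12) and Mcm2 (0.032). With 1 array left out, the genotype difference on the normal diet ran from -0.22 to 0.016 for Mcm2, from -0.035 to 0.10 for Mcm6 and from -0.19 to 0.022 for Mcm8. The diet difference then ran from -0.27 to 0.016 for Mcm2 in WT, from -0.10 to 0.10 for Mcm8 in KO2 and from -0.52 to 0.062 for Mcm10 in KO2. In the main fit none of these differences had passed the threshold except Mcm3 and Mcm8 in WT. With the turned sign, Mcm6 in WT passed with array medians (adjusted p = 0.0080, limma). So did Mcm6 in KO2 with quantile normalization (adjusted p = 0.0114) and Mcm8 in KO2 with array medians (adjusted p = 0.0167, limma). The cause of the turns was not tested. The share of calls with KO2 lower was 63.1% on the normal diet (73.1% with array medians, 90.6% with no scaling) and 47.9% on low iodine (86.5% with no scaling).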
